A study of Oryctolagus cuniculus with 6 samples.

Results

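The genes described here are 10 genes of the NRF2 antioxidant response, chosen by symbol from the table of counts and compared between limbal stem cells (LSCs) of preconditioned and fresh rabbit corneas. They are NFE2L2, KEAP1, HMOX1, GCLC, GCLM, TXNRD1, SRXN1, NQO1, SOD2 and CAT. All 10 had a row among the 22190 genes of the table, and all 10 were among the 15029 genes with enough counts to be tested. The question the comparison answers is whether the oxidative stress genes of the cultured cells differed after the tissue had been frozen together with an inflammatory cytokine.

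Primary LSCs of the rabbit (Oryctolagus cuniculus) had grown out of limbal explants, the limbus being the rim of the cornea that holds the stem cells of its epithelium. In the fresh group (3 libraries), the explants came from corneas that had not been frozen. In the preconditioned group (3 libraries), the corneas had first been kept for 7 days in liquid nitrogen, in a freezing medium containing 10 ng/mL of the cytokine IL-1β, and were thawed before explant culture. Freezing and IL-1β were applied together, so their shares in a difference cannot be told apart. Both groups were cultured in the same way before polyA RNA was sequenced. The rabbit strain, the age of the animals and whether the libraries of a group came from separate animals are not given in the sources used here, so p-values measure the spread between these libraries, which may be technical.

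NRF2, the product of NFE2L2, is a transcription factor that in unstressed cells is bound by KEAP1 and handed over for degradation. Oxidants and electrophiles modify KEAP1, and NRF2 then escapes, enters the nucleus with a small MAF protein and switches on genes that make glutathione, reduce thioredoxin, detoxify quinones and break down heme. Control is therefore largely at the level of the protein, which RNA-seq does not measure, and the surface epithelium of the eye meets light, oxygen and inflammatory cells, against which these enzymes are a known defence.

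The libraries held between 31952352 and 34327534 counts on genes. Along the first principal component, the fresh libraries lay between -53.1 and -41.1, preconditioned replicate 1 at 8.13, and preconditioned replicates 2 and 3 at 58.3 and 70.4, so that replicate 1 stood between the fresh libraries and the other preconditioned libraries. For the 10 genes, estimates without a single library are therefore plotted, and the text gives those that alter a call or most of a difference. Of 9 listed markers of the corneal and limbal epithelium, 7 had a row and were detected, with KRT5 between 791 and 1285 FPKM (fragments scaled by gene length and library total) in all 6 libraries and TP63, a marker of limbal progenitors, between 15.9 and 38.7 FPKM. In edgeR 0 of the 7 passed the adjusted p. The 3 preconditioned libraries held the 3 lowest TP63 values, and in DESeq2 TP63 was called lower and EPCAM and PAX6, also epithelial markers, higher. Values within a gene are given below as CPM, the count relative to the library total scaled by the trimmed mean of M-values (TMM), and levels of different genes are compared as FPKM, which takes gene length into account.

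None of the 10 genes passed the cutoffs of the main test, which were an adjusted p of at most 0.05 in edgeR's quasi-likelihood test with Benjamini-Hochberg adjustment over all tested genes, together with a difference of 1 or more on the log2 scale in either direction. Among all tested genes 2.29% passed both cutoffs, and with the adjusted p alone 5.08% did, again with 0 of the 10 genes. At an unadjusted p of at most 0.05, 3 of the 10 were reached (HMOX1, GCLM and CAT), beside 30.6% of all tested genes. DESeq2, an alternative count test, called 1 of the 10, HMOX1, beside 7.78% of the genes it tested under both cutoffs and 19.1% with the adjusted p alone. In TMM-scaled CPM, HMOX1 was also the only one of the 10 whose preconditioned libraries all lay above all fresh libraries, a pattern seen in 17.9% of tested genes, and none had all preconditioned libraries below the fresh ones, seen in 18.8%. The log2 fold change of preconditioned over fresh was positive for 7 of the 10, against 50.5% of tested genes, with a median of 0.33 against 0.01.

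**Figure D1:**
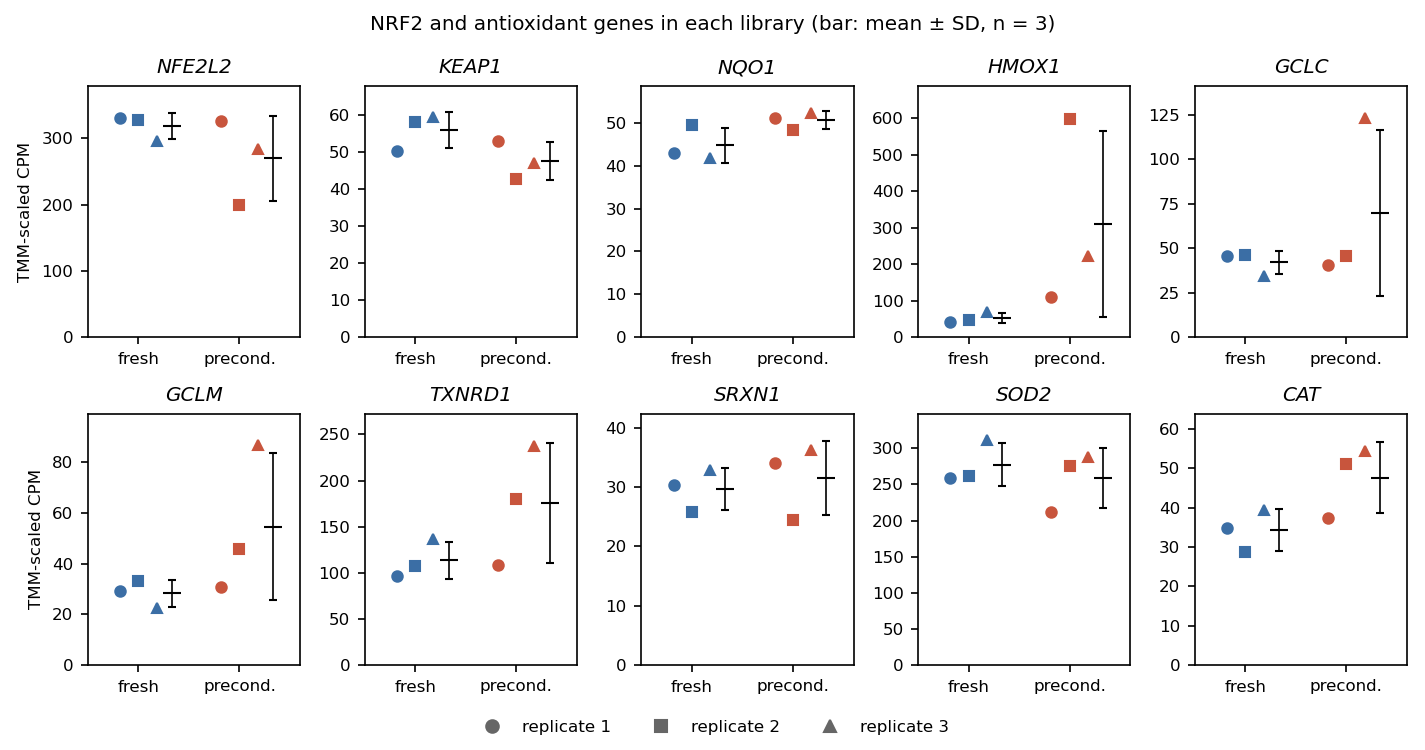
Expression of the 10 genes in each library, as TMM-scaled CPM on linear axes that start at 0. Circles, squares and triangles are replicates 1, 2 and 3 of the fresh (blue) and preconditioned (red) group, and the black bar is the mean ± SD (n = 3). HMOX1 is the gene whose groups do not overlap, GCLC, GCLM and TXNRD1 are highest in preconditioned replicate 3, and NFE2L2 is lowest in preconditioned replicate 2.

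The regulator itself was not higher in the preconditioned group. NFE2L2 stood at 331, 328 and 296 CPM in fresh replicates 1 to 3 and at 326, 200.2 and 285 CPM in preconditioned replicates 1 to 3. The lowest value was that of preconditioned replicate 2, while replicate 1 lay within the fresh range, so the groups overlapped. This overlap depended on the TMM scaling. In FPKM the preconditioned libraries, at 52.6 to 90.3, lay just below the fresh ones at 90.6 to 100.3. The means were 318 ± 19.5 and 270.2 ± 64.0 CPM (SD, n = 3), which is -0.24 on the log2 scale (SE 0.18, 95% interval -0.67 to 0.19) with an adjusted p of 0.41 by edgeR's quasi-likelihood test. The log2 fold change was -0.06 without preconditioned replicate 2 and -0.40 without replicate 1 (edgeR adjusted p = 0.83 and 0.12).

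KEAP1, the adaptor that holds NRF2 for ubiquitination, gave 50.4, 58.0 and 59.4 CPM in the fresh libraries and 53.0, 42.8 and 47.2 CPM in the preconditioned ones. Preconditioned replicates 2 and 3 were below every fresh library and replicate 1 was not. In FPKM, without the TMM scaling, all preconditioned libraries (10.5 to 13.8) were below the fresh ones (14.3 to 17.0). On the log2 scale the groups differed by -0.23 (SE 0.13, edgeR adjusted p = 0.26), within the spread between libraries. The ratio of NFE2L2 to KEAP1, taken within each library from FPKM and so free of the scaling between libraries, was 7.01, 6.04 and 5.32 in the fresh and 6.56, 5.001 and 6.44 in the preconditioned libraries. The ratios overlapped, with an exact 2-sided permutation p of 0.9, where the smallest p that 3 against 3 libraries allow is 0.1.

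HMOX1, the inducible heme oxygenase that cleaves heme to biliverdin, iron and carbon monoxide, showed the largest difference of the 10 genes. Its values were 41.6, 45.7 and 68.5 CPM in the fresh libraries and 109, 598 and 223 CPM in the preconditioned ones. Every preconditioned library was above every fresh library, and the preconditioned libraries differed among themselves by 5.50-fold from lowest to highest, against 1.64-fold in the fresh group. The means were 52.0 ± 14.5 and 309.9 ± 256 CPM (SD, n = 3), a 5.96-fold difference with a 95% interval from 2.17-fold to 16.4-fold. With an unadjusted p of 0.0044 and an adjusted p of 0.057 by edgeR's quasi-likelihood test, HMOX1 missed the cutoff, and DESeq2 gave the same log2 fold change of 2.58 with an adjusted p of 2.3e-05. The exact permutation p of the log2 CPM was 0.1, the smallest this design allows.

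The size of the HMOX1 difference rested in part on preconditioned replicate 2. Without that library the log2 fold change was 1.68 (SE 0.35, edgeR adjusted p = 0.14), and without preconditioned replicate 1 it was 2.97 (SE 0.48, edgeR adjusted p = 0.016), past both cutoffs. Preconditioned replicate 2 also had the highest summed level of the 10 stromal fibroblast markers, 750 FPKM against 240 to 467 in the fresh libraries and 367 and 415 in the other preconditioned ones. The largest part of it was VIM, at 358 FPKM. VIM, COL1A1, COL3A1, DCN, LUM and PDGFRA were highest in this library, whereas COL1A2, KERA, PDGFRB and THY1 were not. Of these markers, COL1A1, the main collagen chain of the stroma, rose from 91.3 ± 29.8 to 578 ± 100.4 CPM (SD, n = 3, edgeR adjusted p = 0.015, and 0.069 without fresh replicate 2 and 0.067 without preconditioned replicate 2), and the other 9 did not pass the test. The summed level of the 6 immune cell markers was 80.5 to 105 FPKM in the fresh libraries and 88.7, 212 and 204 FPKM in preconditioned replicates 1 to 3. Nearly all of it was CD68, a lysosomal protein of macrophages that other cells can also express, at 73.3 to 101 FPKM in the fresh libraries and 85.7, 202 and 202 FPKM in the preconditioned ones. The other myeloid and leukocyte markers were low but were highest in preconditioned replicate 2, the library in which HMOX1 was highest. There PTPRC, the pan-leukocyte marker, stood at 0.24 FPKM against 0.04 to 0.09 in the other 5 libraries, CSF1R at 1.23 against 0.18 to 0.48, ITGAM at 0.79 against 0.03 to 0.22 and CD14 at 8.31 against 1.80 to 6.64 FPKM. The T cell marker CD3E had 1 count in 1 fresh library and 0 in the other 5. Of 5 vascular endothelial markers, PECAM1 was also highest in preconditioned replicate 2, at 3.47 FPKM. It stood at 1.40 FPKM in replicate 3 and 0.73 to 0.93 in the fresh libraries, and replicate 1, at 0.25, was below all of these. VWF, CDH5, KDR and TEK were at most 0.05 FPKM in any library. The 7 melanocyte markers summed to 0.54 to 0.63 FPKM in the fresh libraries and to 0.32, 0.98 and 1.29 FPKM in preconditioned replicates 1 to 3. In bulk RNA, a change in the number of cells of a type and a change in RNA per cell cannot be told apart, and the part of these cells in the HMOX1 values was not tested.

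HMOX2, the constitutive heme oxygenase, stood at 72.2, 74.9 and 71.5 CPM in the fresh and 99.3, 82.3 and 75.5 CPM in the preconditioned libraries, a log2 fold change of 0.23 (edgeR adjusted p = 0.25). The FPKM ratio of HMOX1 to HMOX2 within a library was 0.686, 0.726 and 1.14 in the fresh group and 1.30, 8.64 and 3.52 in the preconditioned group. The ratios did not overlap between the groups (exact permutation p = 0.1), and HMOX1 was the more abundant heme oxygenase per length in all 3 preconditioned libraries and in 1 of 3 fresh ones.

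GCLC and GCLM encode the catalytic and the modifier subunit of glutamate-cysteine ligase, the enzyme that sets the pace of glutathione synthesis. GCLC gave 45.3, 46.3 and 34.3 CPM in the fresh and 40.6, 45.4 and 123 CPM in the preconditioned libraries. Only preconditioned replicate 3 left the fresh range, and the log2 fold change of 0.73 (SE 0.43, edgeR adjusted p = 0.29) became 0.04 without that library. GCLM gave 29.2, 33.1 and 22.5 CPM in the fresh and 30.9, 45.9 and 87.0 CPM in the preconditioned libraries. Preconditioned replicates 2 and 3 were above all fresh libraries and replicate 1 was within their range, for a log2 fold change of 0.95 (SE 0.37, 95% interval 0.07 to 1.83, edgeR adjusted p = 0.14). Without preconditioned replicate 1 the GCLM value was 1.22 with an edgeR adjusted p of 0.036, and without replicate 3 it was 0.45 with an edgeR adjusted p of 0.29.

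The modifier subunit was the scarcer transcript in every library. The FPKM ratio of GCLM to GCLC was 0.532, 0.590 and 0.543 in the fresh and 0.630, 0.836 and 0.583 in the preconditioned libraries, overlapping by 1 library (exact permutation p = 0.2). In preconditioned replicate 3 both subunits were high together and the ratio was within the fresh range, while replicate 2 had the highest ratio, with GCLC at its fresh level.

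TXNRD1 encodes the cytosolic selenoenzyme that reduces thioredoxin with NADPH. It gave 96.2, 107 and 136 CPM in the fresh and 108, 180.3 and 238 CPM in the preconditioned libraries. Again preconditioned replicates 2 and 3 were above all fresh libraries and replicate 1 was among them. The log2 fold change was 0.63 (SE 0.28, edgeR adjusted p = 0.19), 0.87 without preconditioned replicate 1 (edgeR adjusted p = 0.021) and 0.35 without replicate 3 (edgeR adjusted p = 0.42). A row described as a further thioredoxin reductase, LOC108176675, held between 3.03% and 3.94% of the summed counts of both rows, and the log2 fold change of the sum was again 0.63.

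SRXN1, sulfiredoxin, which repairs overoxidised peroxiredoxins, gave 30.4, 25.8 and 32.8 CPM in the fresh and 34.0, 24.5 and 36.3 CPM in the preconditioned libraries. The groups overlapped, and the log2 fold change of 0.09 (SE 0.18, 95% interval -0.34 to 0.52, edgeR adjusted p = 0.77) became -0.08 with library size alone as the scale, -0.09 in limma on log2 FPKM, and negative without fresh replicate 2 or preconditioned replicate 3. NQO1, a quinone reductase often used as a readout of NRF2 activity, gave 43.0, 49.4 and 41.7 CPM in the fresh and 51.1, 48.3 and 52.4 CPM in the preconditioned libraries. The highest fresh library lay above the lowest preconditioned one. NQO1 had a log2 fold change of 0.18 (SE 0.11, edgeR adjusted p = 0.32), and its 95% interval of -0.09 to 0.44 left out a doubling.

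SOD2, the manganese superoxide dismutase of mitochondria and a target of NF-κB as well as of NRF2, gave 259, 262 and 311 CPM in the fresh and 212, 276 and 288 CPM in the preconditioned libraries. Preconditioned replicate 1 was the lowest library and the others lay within the fresh range. The log2 fold change was -0.10 (SE 0.15, 95% interval -0.46 to 0.26, edgeR adjusted p = 0.68), and it was 0.01 without preconditioned replicate 1. SOD1, the cytosolic copper-zinc enzyme, gave 193, 164 and 169 CPM in the fresh and 258, 246 and 223 CPM in the preconditioned libraries (log2 fold change 0.47, edgeR adjusted p = 0.057). The FPKM ratio of SOD2 to SOD1 was 0.370, 0.438 and 0.508 in the fresh and 0.225, 0.308 and 0.356 in the preconditioned libraries, lower in all 3 preconditioned libraries than in any fresh one (exact permutation p = 0.1).

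CAT, the peroxisomal catalase that breaks down hydrogen peroxide, gave 34.8, 28.6 and 39.5 CPM in the fresh and 37.3, 51.2 and 54.4 CPM in the preconditioned libraries. Preconditioned replicates 2 and 3 were above all fresh libraries and replicate 1 was not. The log2 fold change was 0.47 (SE 0.19, 95% interval 0.04 to 0.91, edgeR adjusted p = 0.14), and without preconditioned replicate 1 it was 0.61 (edgeR adjusted p = 0.030). Without another single library it was as low as 0.35, with edgeR adjusted p values up to 0.35.

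**Figure D2:**
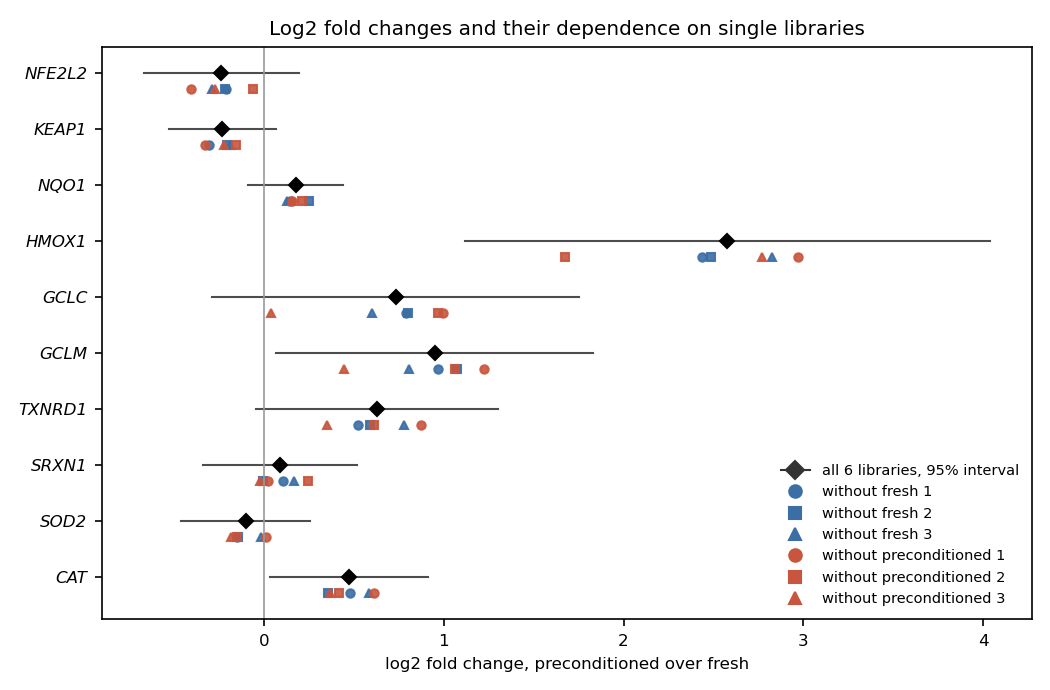
Log2 fold change of preconditioned over fresh for each of the 10 genes on the x axis. The diamond and line are the edgeR estimate from all 6 libraries with its 95% interval, and the small symbols below are the estimates without 1 library each. The interval of HMOX1 runs from 1.12 to 4.04 and its estimates stay above 1.67, while GCLC reaches 0.04 without preconditioned replicate 3.

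The preconditioned libraries differed from each other in which of the 10 genes were high. Set against the mean of the fresh libraries, 1 of the 10 genes was more than 1.5-fold higher in preconditioned replicate 1 (HMOX1), 3 in replicate 2 (HMOX1, GCLM and TXNRD1) and 5 in replicate 3 (HMOX1, GCLC, GCLM, TXNRD1 and CAT). Of all tested genes, 10.1%, 18.9% and 18.7% were as far above the fresh mean in these libraries. In the other direction, NFE2L2 in replicate 2 was the 1 value more than 1.5-fold below the fresh mean, where 15.9%, 21.6% and 22.8% of tested genes lay in replicates 1 to 3. The highest of the 6 libraries was preconditioned replicate 3 for 6 genes, preconditioned replicate 2 for HMOX1 alone and a fresh library for NFE2L2, KEAP1 and SOD2. The coefficient of variation was larger in the preconditioned than in the fresh group for 9 of the 10 genes, and for HMOX1 it was 82.5% against 27.9%. The shares of all tested genes with these patterns were not computed. Along the first principal component too, the preconditioned libraries lay further apart than the fresh ones. The lowest count behind any value of the 10 genes was 766, where counting error alone is 3.61%, so the spread between libraries and not depth limited the precision.

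When preconditioned replicate 1 was left out, 2 of the 10 genes passed both cutoffs in edgeR (HMOX1 and GCLM), beside 9.99% of tested genes. With the adjusted p alone, 4 passed, all higher (HMOX1, GCLM, TXNRD1 and CAT), beside 11.2% of tested genes that passed in the same direction. Replicates 2 and 3, which remained, also held the lowest levels of the 13 mitochondrially encoded transcripts, summed to 4723 and 3017 FPKM against 11292 in replicate 1 and 12570 to 19496 in the fresh group. The transcripts did not move alike in replicate 3, where COX2 stood at 33.4 CPM against 1611 to 2918 in the fresh group while ND4 was at 1368 CPM, within the fresh range of 988 to 1420. All 13 had a negative log2 fold change, of which ND5, a subunit of respiratory complex I, passed the adjusted p (-0.82, edgeR adjusted p = 0.040) but not without any 1 library other than preconditioned replicate 1 (up to 0.15), and the part of this difference in the values of the nuclear genes was not tested. Replicate 1 also differed from replicates 2 and 3 in the sum of the conjunctival epithelial markers, of which 4 of 5 had a row and 0 passed in edgeR. Their summed level was 2940 FPKM in replicate 1, 1452 and 1218 FPKM in replicates 2 and 3 and 1788 to 3367 FPKM in the fresh group, most of it KRT19. KRT4 and KRT13, at 20.4 and 7.76 FPKM in replicate 1, were above every other library, fresh ones included (up to 6.61 and 2.88 FPKM). KRT7 was alike in replicates 1 and 2, at 516 and 527 FPKM, and lower in replicate 3 at 178 FPKM. The part of these markers in the calls above was not tested either.

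**Figure D3:**
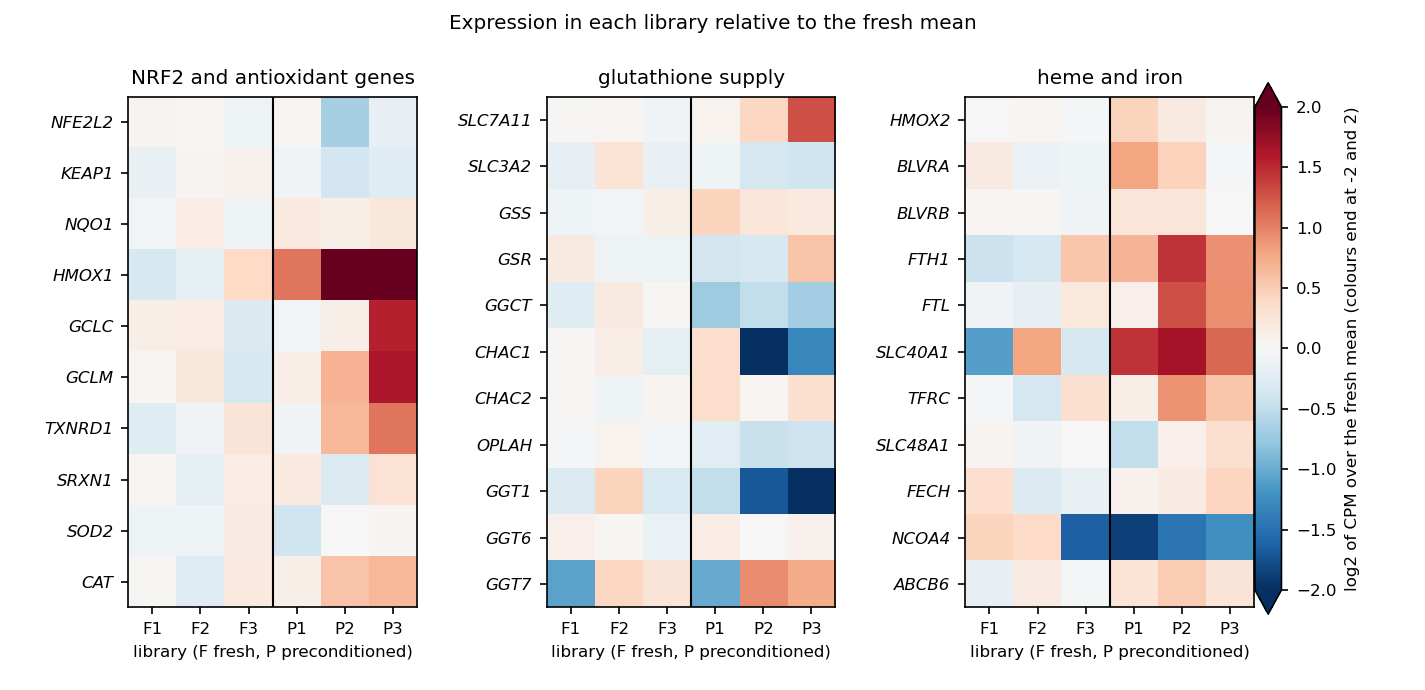
Log2 ratio of each library's CPM to the mean of the fresh libraries, as colour, for the 10 genes and for all tested genes of the glutathione supply and the heme and iron lists. Columns are fresh (F) and preconditioned (P) replicates 1 to 3, and colours end at -2 and 2. HMOX1 lies above this range in P2 and P3, and CHAC1 in P2 and GGT1 in P3 lie below it. GCLC, GCLM and SLC7A11 are highest in P3, and FTH1, FTL and HMOX1 in P2.

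By level per length, NFE2L2 was the most abundant of the 10 transcripts in the fresh group at 97.0 ± 5.52 FPKM (SD, n = 3), followed by SOD2 at 85.9 ± 9.50 and TXNRD1 at 68.4 ± 12.8 FPKM. SRXN1, HMOX1 and NQO1 formed a middle tier at 37.9 ± 4.65, 36.8 ± 10.4 and 34.5 ± 3.15 FPKM, whose libraries overlapped. KEAP1, CAT and GCLC lay between 12.5 and 16.0 FPKM and GCLM was last at 6.93 ± 1.29 FPKM. Neighbours in this order were separated in all libraries only between TXNRD1 and SRXN1, between NQO1 and KEAP1 and between GCLC and GCLM. In the preconditioned group HMOX1 had the highest mean, 192 ± 153.5 FPKM, but its libraries overlapped those of TXNRD1 at 93.9 ± 34.6, NFE2L2 at 73.6 ± 19.2 and SOD2 at 71.1 ± 10.4 FPKM. There, neighbours were separated only between SOD2 and SRXN1 and between NQO1 and CAT.

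The genes whose log2 CPM followed NFE2L2 most closely over the 6 libraries were UBR7, ABRAXAS1 and ORC6, with Pearson's r of 0.987, 0.986 and 0.986. These are descriptions over 6 libraries that share their depth scaling and the low value of preconditioned replicate 2, and 202 tested genes had an r of at least 0.9. Among the other 9 genes, r with NFE2L2 ran from 0.74 for KEAP1 to -0.90 for HMOX1.

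Around the 10 genes, 160 further genes of the antioxidant response were listed by function, of which 133 had a row under their symbol and 124 were tested. In edgeR, 2 of the 124 passed both cutoffs, AKR1B1 higher and TKT lower, and 10 passed the adjusted p alone, 6 higher and 4 lower. Of all tested genes, 1.08% were higher and 1.20% lower under both cutoffs, and 2.88% and 2.20% with the adjusted p alone. The log2 fold change was positive for 74 and negative for 50, with a median of 0.09. DESeq2 called 9 and 31 of these genes under the same cutoffs, beside 7.78% and 19.1% of the genes it tested. Without preconditioned replicate 1, 12 and 34 passed, beside 9.99% and 25.2% of all tested genes, and without any other single library at most 1 did. Among the 34 were BACH1, SQSTM1, SLC7A11, GPX1, PRDX6, SOD1, ME3, NADK, ALDH1A1, PTGR1, FTL and XDH, none of which passed in edgeR with all 6 libraries. Each of the 10 genes that passed the adjusted p lost that call in 6 to 10 of 15 other settings.

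**Figure D4:**
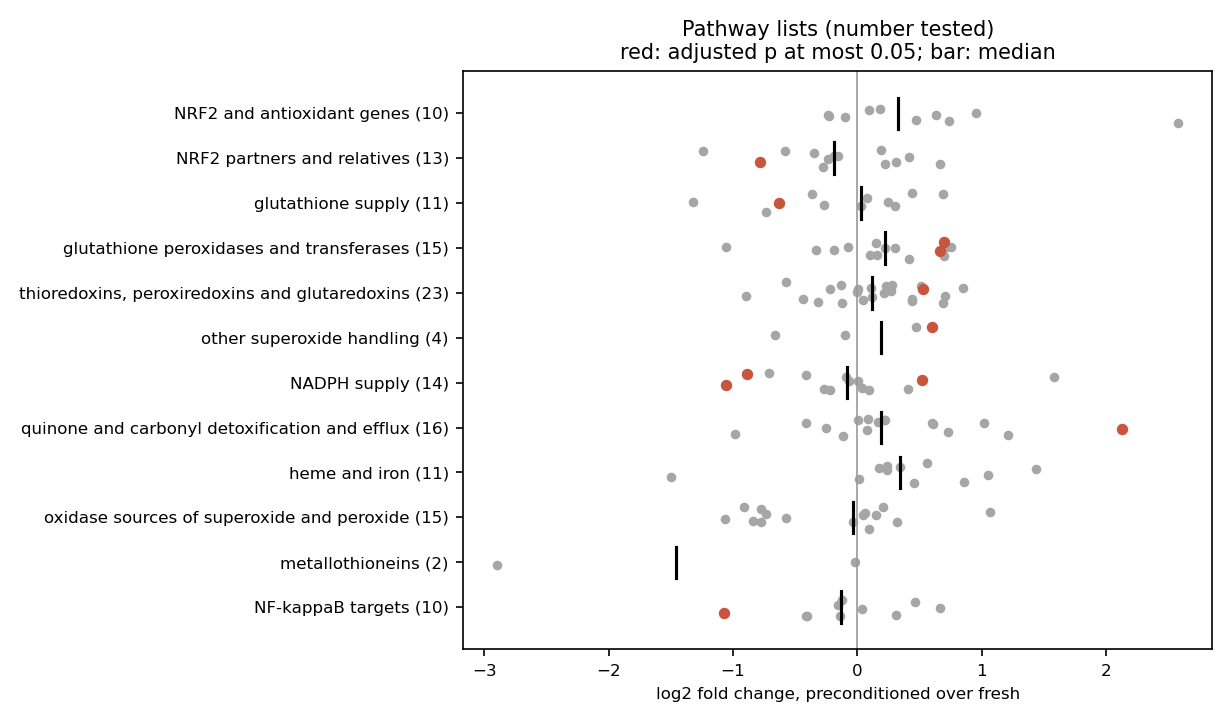
Log2 fold change of preconditioned over fresh (x axis) for the tested genes of each list, with the number tested in brackets. Each point is a gene, red points passed an edgeR adjusted p of 0.05, and the vertical bar is the median of the list. None of the 10 NRF2 and antioxidant genes is red, and the heme and iron list has 10 of its 11 genes at positive values.

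Among partners and relatives of NRF2, 13 genes were tested and 1 passed, PGAM5, a mitochondrial phosphatase that binds KEAP1, which fell from 46.5 ± 5.50 to 27.0 ± 4.10 CPM (SD, n = 3, log2 fold change -0.78, edgeR adjusted p = 0.043). BACH1, the repressor that competes with NRF2 at the HMOX1 gene, gave 200.1, 200.5 and 151 CPM in the fresh and 121, 118 and 129.5 CPM in the preconditioned libraries. All preconditioned libraries were below all fresh ones, and the adjusted p of 0.053 in edgeR missed the cutoff, with a log2 fold change of -0.58. The most abundant genes of the list per length were SQSTM1, an autophagy adaptor that sequesters KEAP1, at a log2 fold change of 0.42 (edgeR adjusted p = 0.16, and 0.020 without preconditioned replicate 1), and RBX1, the ring subunit of the ligase that KEAP1 serves, at 0.22 (edgeR adjusted p = 0.17). Leaving out another library took SQSTM1 down to 0.30, with edgeR adjusted p values up to 0.40.

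In the glutathione supply list, 11 genes were tested and 1 passed, GGCT, which cleaves gamma-glutamyl amino acids in glutathione turnover and fell from 105.1 ± 15.5 to 67.9 ± 5.63 CPM (SD, n = 3, edgeR adjusted p = 0.049). SLC7A11, the cystine importer that feeds glutathione synthesis and a well-known NRF2 target, gave 16.8, 17.0 and 15.8 CPM in the fresh and 17.4, 22.1 and 40.4 CPM in the preconditioned libraries. As for GCLC and GCLM, preconditioned replicate 3 was the highest, and the log2 fold change was 0.69 (edgeR adjusted p = 0.17), 0.26 without that library (edgeR adjusted p = 0.40) and 0.91 without replicate 1 (edgeR adjusted p = 0.043). SLC3A2, the heavy chain of the same transporter, had a log2 fold change of -0.27 (edgeR adjusted p = 0.29), and GSR, which reduces oxidised glutathione, stood at 116 CPM in preconditioned replicate 3 against 60.5 to 88.5 CPM in the other 5 libraries, with a log2 fold change of 0.03 that became -0.34 without replicate 3 and was also negative in limma, with library size alone, with a replicate block and without fresh replicate 2 or 3.

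Of 15 tested glutathione peroxidases and transferases, 2 passed the adjusted p, both higher. GSTK1, a transferase of mitochondria and peroxisomes, rose from 27.7 ± 2.49 to 44.8 ± 5.78 CPM and MGST3, a microsomal transferase, from 141 ± 12.9 to 224 ± 19.4 CPM (SD, n = 3, edgeR adjusted p = 0.044 and 0.039). GPX1, the cytosolic glutathione peroxidase, gave 358, 334 and 327 CPM in the fresh and 479, 488 and 714 CPM in the preconditioned libraries (log2 fold change 0.72, edgeR adjusted p = 0.055). Its groups did not overlap. GSTP1, among the 2 most abundant of the list, had means of 402 ± 56.0 and 381 ± 52.7 CPM (SD, n = 3, edgeR adjusted p = 0.77).

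Of 23 tested thioredoxins, peroxiredoxins and glutaredoxins, 1 passed, MSRB3, a methionine sulfoxide reductase, which rose from 93.0 ± 8.43 to 134 ± 7.56 CPM (SD, n = 3, edgeR adjusted p = 0.046). TXN, the thioredoxin that TXNRD1 reduces, had a log2 fold change of 0.23 (edgeR adjusted p = 0.48). PRDX6 and NXN, a peroxiredoxin and a relative of thioredoxin, had log2 fold changes of -0.57 and -0.44 (edgeR adjusted p = 0.062 and 0.067), and PRDX5, another abundant peroxiredoxin, -0.13 (edgeR adjusted p = 0.50). Beside SOD1, the superoxide list held PARK7, a redox-sensitive chaperone that rose from 118 ± 14.4 to 179 ± 10.99 CPM (SD, n = 3, edgeR adjusted p = 0.045).

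The NADPH supply list, which feeds the reductases above, had 14 tested genes, of which 1 passed higher and 2 lower with the adjusted p. TKT, transketolase of the non-oxidative branch of the pentose phosphate pathway, gave 1472, 1474 and 1045 CPM in the fresh and 657, 468 and 792 CPM in the preconditioned libraries and fell by 1.06 on the log2 scale (edgeR adjusted p = 0.048). TALDO1, transaldolase of the same branch, rose by 0.52 (edgeR adjusted p = 0.046). ME3, a mitochondrial malic enzyme at 0.48 ± 0.14 and 1.45 ± 0.24 CPM (SD, n = 3), and NADK, which makes NADP, had log2 fold changes of 1.58 and -0.41 and missed the cutoff (edgeR adjusted p = 0.060 and 0.071).

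Of 16 tested genes of quinone and carbonyl detoxification and efflux, 1 passed. AKR1B1, aldose reductase, which reduces aldehydes and glucose with NADPH, gave 19.1, 19.1 and 21.2 CPM in the fresh and 42.0, 97.1 and 121 CPM in the preconditioned libraries. It rose by 2.13 on the log2 scale (SE 0.36, edgeR adjusted p = 0.038). ALDH1A1, a retinaldehyde dehydrogenase abundant in the cornea of several mammals, gave 1241, 1058 and 1163 CPM in the fresh and 2205, 1669 and 3119.5 CPM in the preconditioned libraries, without overlap, and missed the cutoff narrowly (log2 fold change 1.01, edgeR adjusted p = 0.0505). PTGR1 and ALDH3A2, which also act on reactive aldehydes and ketones, had log2 fold changes of 0.73 and 0.61 (edgeR adjusted p = 0.055 and 0.075), and the abundant UGDH 0.17 (edgeR adjusted p = 0.45).

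In the heme and iron list, which surrounds HMOX1, 0 of 11 tested genes passed in edgeR, 10 had a positive log2 fold change (50.5% of all tested genes), 4 had an unadjusted p of at most 0.05 (30.6% of all tested genes), 3 of them positive and NCOA4 negative, and DESeq2 called 3 higher and 1 lower with the adjusted p, beside 9.68% and 9.43% of the genes it tested. FTH1, the ferritin heavy chain that stores the iron released from heme, gave 10210, 10716 and 20215 CPM in the fresh and 21936, 37187 and 25934 CPM in the preconditioned libraries. The groups did not overlap but fresh replicate 3 lay close to the lowest preconditioned library, for a log2 fold change of 1.05 (edgeR adjusted p = 0.086). FTL, the light chain, gave 479, 449.7 and 581 CPM in the fresh and 542, 1227 and 962 CPM in the preconditioned libraries, highest in replicate 2 as HMOX1 was (log2 fold change 0.86, edgeR adjusted p = 0.10, and 1.11 without preconditioned replicate 1, edgeR adjusted p = 0.0077). Without another single library FTL was as low as 0.58, with edgeR adjusted p values up to 0.27. SLC40A1, the iron exporter, stood at 9.20 ± 6.06 and 24.9 ± 4.46 CPM in the fresh and preconditioned groups (SD, n = 3, edgeR adjusted p = 0.094). The gene at a negative value was NCOA4, the receptor that delivers ferritin for degradation, at 26.0, 24.9 and 6.15 CPM in the fresh and 5.20, 6.94 and 8.10 CPM in the preconditioned libraries, so that fresh replicate 3 was like the preconditioned ones (log2 fold change -1.49, edgeR adjusted p = 0.11, and -1.92 without fresh replicate 3, edgeR adjusted p = 0.046). Other omissions brought NCOA4 to as little as -1.20, with edgeR adjusted p values up to 0.27.

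Of 15 tested oxidase genes that produce superoxide or peroxide, 0 passed in edgeR and 1, DUOXA1, had an unadjusted p of at most 0.05 (30.6% of all tested genes), with 0 called by DESeq2 (19.1% with the adjusted p alone). The 2 most abundant, CYBA, the p22phox subunit, and XDH, xanthine dehydrogenase, had log2 fold changes of 0.20 and -0.78 (edgeR adjusted p = 0.56 and 0.20), and without preconditioned replicate 1 XDH passed both cutoffs at -1.36 (edgeR adjusted p = 0.0054). Other omissions brought XDH to as little as -0.55, with edgeR adjusted p values up to 0.44. Of 10 NF-κB targets, listed because IL-1β signals through NF-κB and SOD2 is one of its targets, NFKB1, the p50 precursor, passed both cutoffs and fell from 90.7 ± 7.84 to 43.1 ± 15.2 CPM (SD, n = 3, edgeR adjusted p = 0.0498), beside 1.20% of all tested genes. NFKB1 lost the call in 7 of 15 other settings, with adjusted p values up to 0.17 when any 1 library other than preconditioned replicate 1 was left out. NFKBIA, the inhibitor induced by NF-κB, had a log2 fold change of -0.41 (edgeR adjusted p = 0.061), and CXCL8, the most abundant of these targets per length, ranged from 206 to 628 CPM in the fresh and from 139 to 748 CPM in the preconditioned libraries.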

How the data were processed

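RNA-seq was analysed in 3 fresh and 3 preconditioned libraries of cultured rabbit LSCs, grouped and numbered by their titles. The authors aligned reads with hisat2 and deposited raw counts per gene from htseq-count, and the deposited FPKM values equal counts per library total and gene length. The genome build and strand setting are not given in the sources used here, so no coordinates are reported, and 7499 genes carry only a LOC identifier.

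Counts were filtered with filterByExpr and tested with edgeR's quasi-likelihood test (edgeR 4.0.16, R 4.3.3, TMM scaling, robust estimation, condition as the only factor), with Benjamini-Hochberg adjustment over all 15029 tested genes. The study used DESeq2, which was run as an alternative (version 1.42.0), as were limma-trend (version 3.58.1) on log2 FPKM with pseudocounts of 1 and 0.1, other scalings and filters, a replicate block and leaving out each library. SE values were derived from the F statistic. The self-test ran on simulated counts. Permutation tests were exact and 2-sided.

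The 10 genes and all lists were chosen with earlier results of these data known, and no list was tested as a set. Genes named beside the 10 had an adjusted p of at most 0.05 or an unadjusted p of at most 0.01, were among the 2 of their list with the highest mean FPKM, were among the 3 most correlated with NFE2L2, or bear on a result of the 10. List members outside this rule (SLC7A11, GSR, SLC40A1, NCOA4, HMOX2, DUOXA1, ND4 and the cell type markers) were added after their values were seen. The values of 1 gene that met this rule are not reported here. The libraries of a group differed by far more than sampling noise (chi-square per degree of freedom 38.4 or more).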

Additional observations from a re-analysis of the deposited data

How the results depend on the processing

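Of 150 log2 fold changes recomputed for the 10 genes under 15 other settings, 139 kept their direction and side of the cutoff, 5 moved past the cutoff and 6 changed sign. For 45 other named genes, 519 of 675 held, 50 moved past, 91 lost the cutoff and 15 changed sign. The causes of these shifts were not tested.

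Of the 10 genes, DESeq2 called 1 under both cutoffs and 1 with the adjusted p alone, and leaving out 1 library gave 0 to 2 and 0 to 4, with the highest counts without preconditioned replicate 1. All tested genes gave 344 calls (163 higher, 181 lower), which became 1190 in DESeq2, 565 (142 higher, 423 lower) with library size alone, 590 in limma on log2(FPKM + 0.1) and 14 to 1546 without 1 library. In limma on log2(FPKM + 1) the split was 77 higher and 206 lower. Library size alone and these limma fits shifted the median over all genes from 0.01 to -0.16, -0.15 (pseudocount 0.1) and -0.09 (pseudocount 1), so fold changes there are to be read against that shift. Of the other antioxidant genes, 2 passed both cutoffs, and 9 did in DESeq2, 4 in limma with pseudocount 0.1, 1 without robust estimation and 0 to 12 without 1 library. With the adjusted p alone 10 passed (6 higher, 4 lower), 31 in DESeq2 and 0 to 34 without 1 library, while library size alone gave 2 higher and 8 lower and limma 3 higher and 9 lower (pseudocount 1) or 3 higher and 8 lower (pseudocount 0.1).

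The replicate numbers pair no libraries by any source used here. Same-numbered libraries had correlations of their deviations of -0.067, -0.073 and -0.109. With the replicate number as a block, 30 of all tested genes passed both cutoffs, 0 of the 10 genes, and 0 of the other antioxidant genes under either rule, and HMOX1 had a log2 fold change of 2.24 (edgeR adjusted p = 0.12) and GSR of -0.036.

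Signs changed for small values. SRXN1 was -0.075 with library size alone and -0.090 and -0.093 in limma, and -0.019 to 0.24 without 1 library, and SOD2 was -0.18 to 0.013. UGDH was -0.00065, -0.0029 and -0.0030 and GSR -0.14, -0.19 and -0.20 under the 3 former settings. Without 1 library GSTP1 ranged from -0.19 to 0.034, MTF1 from -0.23 to 0.11, CXCL8 from -0.31 to 1.01 and GSR from -0.34 to 0.18. Summing TXNRD1 with LOC108176675, a setting chosen after seeing the data, left its log2 fold change at 0.63 (edgeR adjusted p = 0.19).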

Other observations

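Many rabbit genes carry only a LOC identifier, and those described in the table as metallothionein, ferritin, glutathione S-transferase, carbonyl reductase, peroxiredoxin or thioredoxin reductase were looked up after the data were seen. Metallothioneins bind zinc and copper and scavenge oxidants. LOC100343299, described as metallothionein-2A, gave 1355, 1175 and 1359 CPM in the fresh and 939, 619 and 620.4 CPM in the preconditioned libraries, lower without overlap (log2 fold change -0.84, edgeR adjusted p = 0.052). LOC100343557, described as metallothionein-2D, had a log2 fold change of -0.82 (edgeR adjusted p = 0.058), again without overlap. LOC100343802, described as metallothionein-1A, overlapped between the groups (log2 fold change -0.11, edgeR adjusted p = 0.81). Its value in preconditioned replicate 1, 307 CPM, was above all fresh libraries (212 to 238 CPM). In edgeR 0 of 3 such rows passed, and DESeq2 called 2 lower with the adjusted p alone, beside 9.43% of the genes it tested. By symbol, MT3 and the metal-responsive factor MTF1 had log2 fold changes of -2.89 and -0.02 (edgeR adjusted p = 0.15 and 0.95), with MT3 at 17.5 CPM in fresh replicate 3 and at most 3.52 CPM elsewhere.

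LOC100349285, described as ferritin heavy chain-like, stood at 82.7 CPM in the fresh and 221 CPM in the preconditioned group on average (log2 fold change 1.42, edgeR adjusted p = 0.089). Its reads may be shared with FTH1, which was not tested. Of 8 tested rows described as glutathione S-transferase, 0 passed in edgeR, and DESeq2 called 1, higher, beside 9.68% of the genes it tested with the adjusted p alone. Of 3 tested carbonyl reductase rows, 0 passed in edgeR or DESeq2, with a median log2 fold change of -0.35. In 1 of them the preconditioned libraries were lower without overlap, as in 18.8% of all tested genes. The peroxiredoxin row, LOC100350232, had a log2 fold change of 0.32 (edgeR adjusted p = 0.18). It was higher without overlap, as were 17.9% of all tested genes.

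Within each library the FPKM ratio of HMOX1 to FTH1 was 0.0025, 0.0026 and 0.0020 in the fresh and 0.0030, 0.0097 and 0.0052 in the preconditioned libraries, higher without overlap (exact permutation p = 0.1, the smallest possible).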
